A study of Mus musculus with 10 samples.

Results

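The antigen presentation genes described here are 10 genes that put peptides on the cell surface for T cells. They are B2m, H2-K1, H2-D1, Tap1, Tap2, Tapbp, Cd74, H2-Aa, H2-Ab1 and H2-Eb1. They were chosen by name, and all 10 were found among the 53379 genes with counts in each library and passed the filter on low counts. The libraries came from cells sorted from the hippocampal regions of 5-week-old male mice. In the aversive, appetitive and neutral groups an experience had been tagged. The viruses were AAV9-c-Fos-tTA, which makes a transactivator wherever the c-Fos promoter is active, and AAV9-TRE-ChR2-EYFP, which this transactivator switches on unless doxycycline (Dox) is present. The study's methods describe a sort for EYFP and no separate selection of neurons. Which cell types carried the tag was not tested.

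There were 2 aversive libraries (4 foot shocks of 2 s at 1.5 mA), 2 appetitive libraries (male mice with a female mouse for 1 h by the labels) and 3 neutral libraries (the conditioning cage with no shock and no female). The 3 mock libraries are home cage mice by the labels and an untagged control by the study's methods. The methods do not say which cells were sorted for mock. By the study's methods the mock sample size was 2 mice. If this is the total, the 3 mock replicates are not separate animals, but the methods do not say so. Each tagged condition was a pool of 8 mice. The study's text says that sequencing was replicated and batch effects were controlled for, but not whether replicate libraries came from separate pools. P-values therefore measure the spread between libraries, which may be technical. By the labels the neutral libraries differ from the other 3 groups in kit version, sequencer, read length (100 bp instead of 40 bp) and molecule label. Condition and library preparation therefore cannot be told apart in any comparison with neutral. The study's results speak of sorted nuclei and its methods of sorted single cells.

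Class I molecules consist of a heavy chain (here H2-K1 and H2-D1) and the light chain beta-2 microglobulin, encoded by B2m. Peptides from the cytosol reach them through the TAP transporter, whose subunits are Tap1 and Tap2, with tapasin (Tapbp) holding the empty heavy chain beside the transporter. Class II molecules consist of an alpha and a beta chain, here H2-Aa with H2-Ab1, while H2-Eb1 encodes another beta chain. Class II molecules are escorted by the invariant chain, Cd74, to the compartment where they take up peptides of engulfed proteins. In brain, class I genes are active in microglia, in endothelial cells and at a lower level in neurons, where they have been studied in synapse remodeling. Class II genes mark microglia in some states, border macrophages and dendritic cells.

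Of the 10 genes, 8 lie in the major histocompatibility region of chromosome 17, within 1.352 Mb. By GENCODE M21 on GRCm38 they run from Tapbp (chr17:33915899-33929292) and H2-K1 (chr17:33996017-34000347) through Tap1 (chr17:34187553-34197225), Tap2 (chr17:34203527-34216321), H2-Ab1 (chr17:34257689-34269419), H2-Aa (chr17:34282744-34287823) and H2-Eb1 (chr17:34305867-34316674) to H2-D1 (chr17:35262730-35267499). The other 2 lie on other chromosomes, B2m at chr2:122147686-122153083.

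Promoters were taken from RefSeq (GRCm38.p6), which held 7 of the 10 genes in the table used. The motifs searched on both strands were the IRF motif AANNGAAA (interferon regulatory factors), the kappaB motif GGGATTCC (NF-kappaB) and the Y box motif GATTGG (NF-Y), none of which overlapped another in these genes. They were chosen after the letters had been seen, so the counts of members that hold them are descriptions. The 250 bases before the start are shown for a class I light chain, a class I heavy chain, a class II alpha chain and a class II beta chain. They run 5′ to 3′ on the strand of the gene, with motif matches in capitals. They are printed to show where the motifs lie in each kind of chain, and not every motif occurs in each.
B2m: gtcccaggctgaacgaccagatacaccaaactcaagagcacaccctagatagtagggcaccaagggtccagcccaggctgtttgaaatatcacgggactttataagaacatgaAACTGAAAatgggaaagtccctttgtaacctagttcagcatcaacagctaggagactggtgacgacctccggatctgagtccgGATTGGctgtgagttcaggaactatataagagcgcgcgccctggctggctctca
H2-K1: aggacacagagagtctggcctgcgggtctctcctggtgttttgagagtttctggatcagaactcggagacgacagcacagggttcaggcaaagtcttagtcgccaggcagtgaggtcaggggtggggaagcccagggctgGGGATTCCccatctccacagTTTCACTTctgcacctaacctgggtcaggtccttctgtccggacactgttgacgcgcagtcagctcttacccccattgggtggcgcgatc
H2-Aa: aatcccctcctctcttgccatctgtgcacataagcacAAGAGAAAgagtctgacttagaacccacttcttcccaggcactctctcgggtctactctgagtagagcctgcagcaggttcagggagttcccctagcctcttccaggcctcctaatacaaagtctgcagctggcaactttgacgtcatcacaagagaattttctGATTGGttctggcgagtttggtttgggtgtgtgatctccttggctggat
H2-Eb1: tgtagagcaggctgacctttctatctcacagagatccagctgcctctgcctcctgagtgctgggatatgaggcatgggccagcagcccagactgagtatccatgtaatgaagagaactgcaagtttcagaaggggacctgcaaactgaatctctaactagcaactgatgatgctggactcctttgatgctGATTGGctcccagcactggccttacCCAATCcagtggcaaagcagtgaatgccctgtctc

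These stretches are chr2:122147437-122147686 on the plus strand for B2m, chr17:34000348-34000597 on the minus strand for H2-K1, chr17:34287824-34288073 on the minus strand for H2-Aa and chr17:34305617-34305866 on the plus strand for H2-Eb1. In windows from 250 bases before to 50 bases after the start, the Y box motif was found in 6 of the 7 genes (all but Tapbp) and in 16.1% of 32851 promoters. The match in H2-K1 begins 9 bases past the RefSeq start and so lies outside the stretch printed. The IRF motif was found in 4 of the 7 (B2m, H2-K1, H2-D1 and H2-Aa) and in 23.9% of all promoters. The kappaB motif was found in the heavy chains only, 2 of the 7, against 1.06% of all promoters.

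The stretch from the kappaB motif to the IRF motif was 28 bases long in both heavy chain genes, 27 of them identical. It begins at −110 from the RefSeq start in H2-K1 and at −170 in H2-D1. These distances depend on the annotated start, since by GENCODE M21 the H2-D1 stretch lies within the gene. The stretch is shown because both genes hold it.
H2-K1: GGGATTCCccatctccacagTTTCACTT
H2-D1: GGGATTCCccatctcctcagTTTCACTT

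The first is chr17:34000430-34000457 on the minus strand and the second chr17:35262924-35262951 on the plus strand. Shifted by 60 bases, 166 of 190 promoter bases (87.4%) were identical between H2-K1 and H2-D1. The coding parts are alike as well. Of the 40-base stretches of H2-K1 transcripts, 14.8% also occur in another gene, and of those of H2-D1 19.1%, so reads may be lost from or shared between these genes, which makes their separate levels uncertain. The same share was 25% for Tapbp, 12.9% for Tap2, 3.71% for Tap1 and under 1% for the other 5 genes.

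Total counts per library ranged from 16968588 to 67650693, and 3 counts, the smallest level taken as detectable, were worth 0.0346 to 0.235 normalized CPM (counts scaled to a common library total, after TMM), which covers counting error only. The 10 genes together took 0.0327% to 0.272% of a library's counts. Marker genes of neurons (6 genes, among them Rbfox3, Snap25 and Slc17a7) summed to 49.7 to 714 CPM, those of oligodendrocytes (5 genes) to 6110 to 677000 CPM and those of the choroid plexus (4 genes, led by Ttr) to 848 to 133000 CPM. The markers of neurons were thus lower in sum than those of oligodendrocytes and of the choroid plexus in every library. The study treats the sorted cells as vCA1 engram cells. Single genes carried some of these sums. In appetitive replicate 1 Ttr was at 848 CPM, with Folr1, Kl and Kcnj13 at 0.156, 0.156 and 0.0782 CPM. Appetitive replicate 2 held 2941 counts of Snap25, 2 of Rbfox3 and 0 of Syt1. The sums therefore do not rank the cell types. In bulk libraries such as these, fewer cells of a type and less RNA per cell cannot be told apart.

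**Figure D1:**
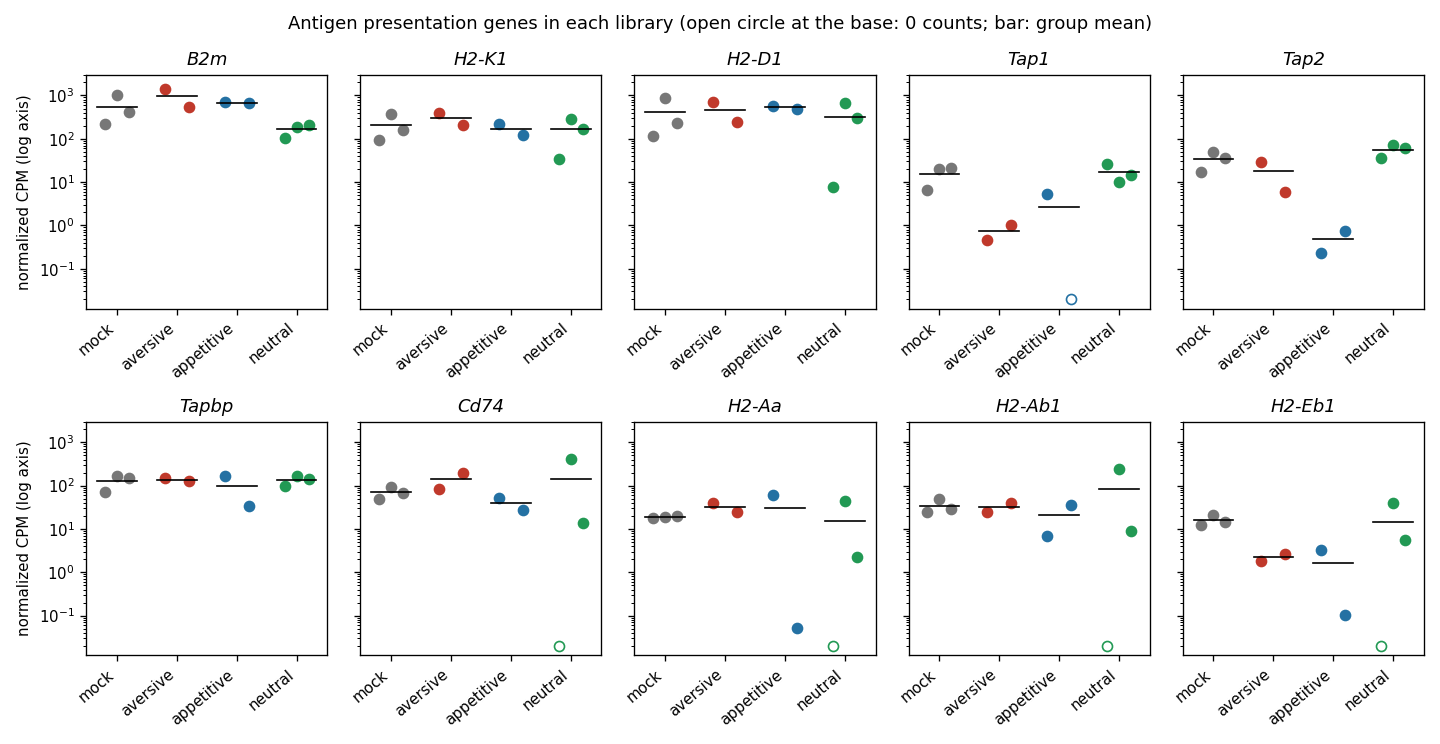
Normalized CPM (log axis) of each antigen presentation gene in the 10 libraries, 1 point per library, by group, with bars at the group means. B2m lies between 107 and 207 CPM in the neutral libraries and at 216 CPM or more in all others, Tap2 lies below 1 CPM in both appetitive libraries, and the 4 class II genes are at 0 counts (open circles) in neutral replicate 1.

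B2m, the light chain that all class I molecules share, had its lowest levels in the neutral libraries. It stood at 216, 1020 and 417 CPM in mock, at 1430 and 536 CPM in aversive, at 700 and 670 CPM in appetitive and at 107, 191 and 207 CPM in neutral libraries. All 3 neutral libraries lay below all 7 others, and the share of all genes that do so was not computed. The group means were 553 ± 421 CPM in mock (SD, n = 3), 981 ± 629 in aversive (n = 2), 685 ± 21.1 in appetitive (n = 2) and 168 ± 53.5 in neutral (n = 3). The log2 fold change against neutral was 2.54 (SE 0.727) in aversive and 2.02 (SE 0.719) in appetitive libraries. Neither passed an adjusted p of 0.05 in edgeR's quasi-likelihood test over 19754 genes, with adjusted p-values of 0.157 and 0.0999. The neutral against mock value was −1.71 (SE 0.666), with an adjusted p of 0.276 by edgeR. Appetitive and aversive libraries differed by −0.52 (SE 0.796) and overlapped.

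Over the alternatives the call for B2m changed with the tool. The adjusted p for aversive against neutral ran from 0.0201 to 0.355 and was under 0.05 in 3 of 18 alternatives, both DESeq2 fits and edgeR without a filter. The adjusted p for appetitive against neutral ran from 0.0471 to 0.222 and was under 0.05 in 2 of 18, DESeq2 on all 10 libraries and edgeR without a filter. In all 18 the direction was the same in both comparisons. The summed level of 8 microglia markers moved the same way, from 42 to 341 CPM in neutral against 983 to 9530 CPM elsewhere. So did astrocyte markers, from 148 to 326 CPM in neutral against 2270 to 12900 CPM. The sum of neuron markers ran from 49.7 to 72.4 CPM in neutral against 149 to 714 CPM. In appetitive libraries this sum was mostly Snap25, at 577 and 154 CPM in replicates 1 and 2. Of the 6 neuron markers, 3 were higher and 3 lower in appetitive than in neutral libraries. Choroid plexus markers moved the other way, from 21700 to 133000 CPM in neutral against 848 to 13700 CPM. The part of these cells in the B2m difference was not tested. Endothelial markers, which ran from 47.2 to 2490 CPM in neutral and from 149 to 2590 CPM in the others, did not separate these libraries. Within groups the orders differed. In mock, B2m and the endothelial sum were highest in replicate 2 and the microglia sum in replicate 3. In aversive libraries B2m and the microglia sum were higher in replicate 1 and the endothelial sum in replicate 3.

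The class I heavy chains H2-K1 and H2-D1, which bind and display the peptide, overlapped between all groups. H2-K1 stood at 91.6, 377 and 156 CPM in mock, 385 and 205 CPM in aversive, 221 and 123 CPM in appetitive and 33.8, 290 and 169 CPM in neutral libraries. The value of neutral replicate 1 was the lowest of the 10, and the other 2 neutral libraries lay within the range of mock. Against neutral, the log2 fold change was 0.84 (SE 0.889) in aversive and 0.06 (SE 0.899) in appetitive libraries, with adjusted p-values of 0.651 and 0.999 by edgeR.

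H2-D1 stood at 116, 870 and 233 CPM in mock, 694 and 250 CPM in aversive, 568 and 496 CPM in appetitive and 7.78, 658 and 295 CPM in neutral libraries. Neutral replicate 1 was again the lowest, while neutral replicate 2 exceeded 1 of the 2 aversive and both appetitive libraries. On the log2 scale the difference from neutral was 0.56 (SE 1.26) in aversive and 0.73 (SE 1.26) in appetitive libraries, with adjusted p-values of 0.865 and 0.732 by edgeR. Without neutral replicate 2 the aversive value was 1.66, and without neutral replicate 1 it was 0.0011.

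The heavy chains and the light chain did not keep 1 ratio. H2-D1 was between 1.22 and 4.03 times H2-K1 in 9 libraries and 0.23 times in neutral replicate 1. Per kb of exon, B2m was between 2.56 and 4.14 times the summed heavy chains in the 7 mock, aversive and appetitive libraries, and 8.59, 0.628 and 1.4 times in the neutral libraries. The neutral libraries thus lay on both sides of the others in this ratio, and no test was made of it.

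The peptide supply side held the member with the largest fold changes. Tap2, a subunit of the transporter that carries peptides into the endoplasmic reticulum, was nearly undetected in appetitive libraries. It stood at 16.8, 50.6 and 35.4 CPM in mock, 29.5 and 5.79 CPM in aversive, 0.235 and 0.733 CPM in appetitive and 36.1, 73.1 and 60.7 CPM in neutral libraries. The appetitive values rest on 3 and 14 counts, of which the first equals the detection floor, against 289 to 6331 counts in the other 8 libraries. Both appetitive libraries lay below all 8 others, a separation not counted over all genes. They were also the libraries with the fewest genes detected, 14144 and 14658 against 16849 to 30899 in the others, and the part of this in the Tap2 values was not tested. The group means were 34.3 ± 16.9 CPM in mock (SD, n = 3), 17.7 ± 16.8 in aversive (n = 2), 0.484 ± 0.353 in appetitive (n = 2) and 56.7 ± 18.9 in neutral (n = 3).

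Tap2 fell by 6.85 on the log2 scale in appetitive against neutral libraries (SE 1.47), the only 1 of the 30 fold changes among the tagged groups to pass, with an adjusted p of 0.0286 by edgeR. Against aversive it was lower by a log2 value of −5.17 (SE 1.39, adjusted p = 0.0929 by edgeR) and against mock of −6.12 (SE 1.42, adjusted p = 0.0544), neither of which passed. The call against neutral depended on the libraries and the tool. The log2 fold change stayed between −7.98 and −6.37 in 17 alternatives, but the adjusted p ran from 3.83e-08 to 0.0951 and was under 0.05 in 8 of them. It was 0.062, 0.063 and 0.063 without mock replicates 1, 2 and 3, 0.0543, 0.0517 and 0.0779 without neutral replicates 1, 2 and 3, and 0.0582 without appetitive replicate 1.

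In aversive libraries Tap2 did not overlap neutral either, with a log2 fold change of −1.68 (SE 1.12) and an adjusted p of 0.429 by edgeR. Exons of Tap2 overlap Gm20496 and Gm15821 on the other strand by up to 533 bases, and counting did not use strand. These 2 genes had at most 16 counts in any library.

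Tap1, the other transporter subunit, was low in aversive and not only in appetitive libraries. It stood at 6.73, 19.7 and 21 CPM in mock, 0.45 and 1.04 CPM in aversive, 5.32 and 0 CPM in appetitive and 26.4, 9.93 and 14.7 CPM in neutral libraries. All 4 aversive and appetitive libraries lay below the 6 mock and neutral libraries, a separation whose share over all genes was not computed. Relative to neutral, the log2 fold change was −4.5 (SE 2.1) in aversive and −2.68 (SE 1.9) in appetitive libraries, with adjusted p-values of 0.272 and 0.345 by edgeR. Against mock the aversive value was −4.39 (SE 2.08, adjusted p = 0.498 by edgeR). DESeq2 called Tap1 lower in aversive than in neutral libraries in both of its fits, where the adjusted p over 17 alternatives ran from 0.000308 to 0.468. Tap1 in appetitive libraries was decided by replicate, since without appetitive replicate 1 its log2 fold change against neutral was −12.64 (adjusted p = 0.0376 by edgeR) and without appetitive replicate 2 −1.74. Tap1 and Psmb9 lie head to head and share 212 exon bases on opposite strands.

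Summed over both subunits, TAP stood at 23.6 to 70.3 CPM in mock, at 30 and 6.83 CPM in aversive, at 5.55 and 0.733 CPM in appetitive and at 62.5 to 83.1 CPM in neutral libraries. The subunits did not go together within a library. In aversive replicate 1 Tap2 was at 29.5 CPM while Tap1 was at 0.45 CPM, and in appetitive replicate 1 Tap1 was at 5.32 CPM while Tap2 was at 0.235 CPM.

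Tapbp, tapasin, had the narrowest range of the 10 genes relative to its level. It stood at 70.2, 165 and 152 CPM in mock, 146 and 127 CPM in aversive, 165 and 34.6 CPM in appetitive and 98.8, 169 and 145 CPM in neutral libraries, so that appetitive replicate 2 was the lowest and all groups overlapped. The log2 fold change was −0.01 (SE 0.765) for aversive and −0.46 (SE 0.775) for appetitive against neutral, with adjusted p-values of 1 and 0.725 by edgeR. Tapbp overlaps Gm19412 on the other strand and Zbtb22, by up to 904 exon bases, and these had up to 192 and 1130 counts in a library.

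**Figure D2:**
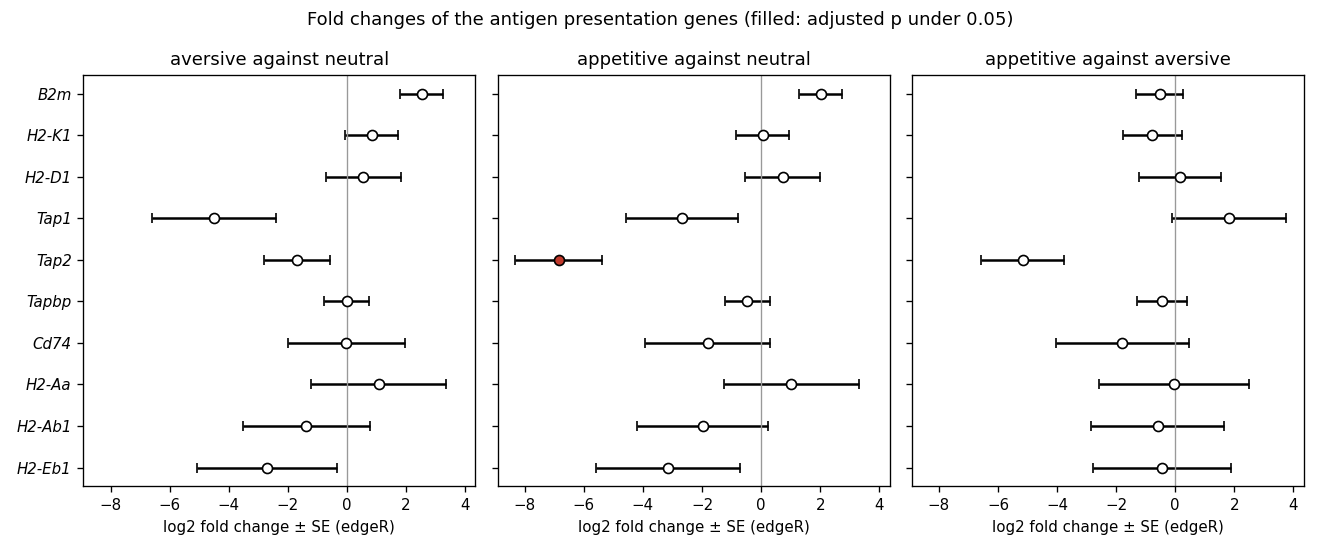
Log2 fold changes (x axis) with standard errors from edgeR for the 10 antigen presentation genes in the 3 comparisons of tagged groups. The 1 filled point, at an adjusted p under 0.05, is Tap2 in appetitive against neutral at −6.85. The bars of the 4 class II genes reach 1.98 to 2.53 log2 units to each side, those of B2m 0.719 to 0.796.

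The class II genes differed widely between the 3 neutral libraries. Cd74, the invariant chain (chr18:60803848-60812652), stood at 49.9, 94.7 and 68.6 CPM in mock, 84.3 and 194 CPM in aversive, 53 and 27.6 CPM in appetitive and 0, 409 and 14 CPM in neutral libraries. The highest and the lowest of the 10 values were thus both neutral. The log2 fold change against neutral was −0.02 (SE 1.98) in aversive and −1.81 (SE 2.12) in appetitive libraries, with adjusted p-values of 1 and 0.59 by edgeR. Both appetitive libraries lay below both aversive ones, by a log2 value of −1.79 (SE 2.24), with an adjusted p of 0.765 by edgeR.

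The direction of Cd74 and of the beta chain H2-Ab1 against neutral changed when neutral replicate 2 was left out. Without it, the log2 fold change of Cd74 was 4.33 in aversive (adjusted p = 0.292 by edgeR) and 2.54 in appetitive libraries (adjusted p = 0.403). That of H2-Ab1, which was −1.37 (SE 2.14) in aversive and −1.98 (SE 2.21) in appetitive with all libraries, became 2.9 and 2.3. No value of either gene passed the test with or without that library.

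H2-Ab1 stood at 24.4, 49.5 and 28.6 CPM in mock, 24.5 and 40.3 CPM in aversive, 7.04 and 35.6 CPM in appetitive and 0, 243 and 8.81 CPM in neutral libraries. Its alpha chain partner H2-Aa stood at 18, 18.5 and 19.6 CPM in mock, 38.9 and 25 CPM in aversive, 61.9 and 0.0524 CPM in appetitive and 0, 43.5 and 2.25 CPM in neutral libraries. The partners diverged in the appetitive libraries. Replicate 1 held 792 counts of H2-Aa and 90 of H2-Ab1, and replicate 2 held 1 count of H2-Aa and 679 of H2-Ab1. The log2 fold change of H2-Aa against neutral was 1.07 (SE 2.28) in aversive and 1.02 (SE 2.28) in appetitive libraries, and without appetitive replicate 1 the latter was −8.23 (adjusted p = 0.269 by edgeR).

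H2-Eb1, the gene of another class II beta chain, lay below mock in aversive and appetitive libraries, as did Tap1. It stood at 12.3, 21 and 14.3 CPM in mock, 1.85 and 2.63 CPM in aversive, 3.21 and 0.105 CPM in appetitive and 0, 38.9 and 5.54 CPM in neutral libraries. All 4 aversive and appetitive libraries lay below all 3 mock libraries, and neutral libraries lay on both sides. How many of all genes separate from mock in this way was not computed. The median log2 fold change over all tested genes was −0.13 in aversive and −1.45 in appetitive against mock. The log2 fold change against mock was −2.82 (SE 2.38) in aversive and −3.27 (SE 2.45) in appetitive libraries, with adjusted p-values of 0.699 and 0.398 by edgeR. Against neutral it was −2.72 and −3.16, with adjusted p-values of 0.562 and 0.385 by edgeR, and without neutral replicate 2 it was −0.28 and −0.73.

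Together H2-Aa, H2-Ab1 and H2-Eb1 summed to 54.7, 89.1 and 62.5 CPM in mock, 65.2 and 67.9 CPM in aversive, 72.2 and 35.7 CPM in appetitive and 0, 325 and 16.6 CPM in neutral libraries. The sum thus lay between 35.7 and 89.1 CPM in the 7 libraries of the first kit, a narrower range than that of the single chains in appetitive libraries. Neutral replicate 1 had 0 counts of all 4 class II genes among 60077131 counts, which allows up to 0.0473 CPM each.

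Markers of cells that carry class II molecules moved with some of these values. Border macrophage markers (6 genes) summed to 49.5 to 175 CPM in mock, 12.2 and 212 CPM in aversive, 6.55 and 24.3 CPM in appetitive and 0.0158, 38.7 and 0 CPM in neutral libraries. Markers of dendritic cells and monocytes (7 genes) summed to 4.5 to 22.7 CPM in mock, 41.7 and 2.3 CPM in aversive, 73.4 and 0.21 CPM in appetitive and 0, 81.8 and 3.19 CPM in neutral libraries. In both lists neutral replicate 2, the library with the highest class II level, was the highest of the 3 neutral libraries. It was also the highest of them in the microglia, endothelial, astrocyte and oligodendrocyte sums. In aversive libraries both lists were lower in replicate 3 than in replicate 1. There Cd74, H2-Ab1 and H2-Eb1 were higher and H2-Aa was lower than in replicate 1. Single genes carried the dendritic cell and monocyte sums, with Cd209a at 72.9 CPM in neutral replicate 2 and Ccr2 at 71.9 CPM in appetitive replicate 1. Pf4 and Ms4a7 of the first list and Flt3, Itgax and Plac8 of the second were at 0 counts in all 3 neutral libraries. B cell markers (5 genes) summed to 22.1 to 117 CPM outside neutral and to 0.0789 to 14.3 CPM in neutral libraries, and T cell markers (4 genes) to at most 25.8 CPM in any library. The part of these cells in the class II levels was not tested.

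**Figure D3:**
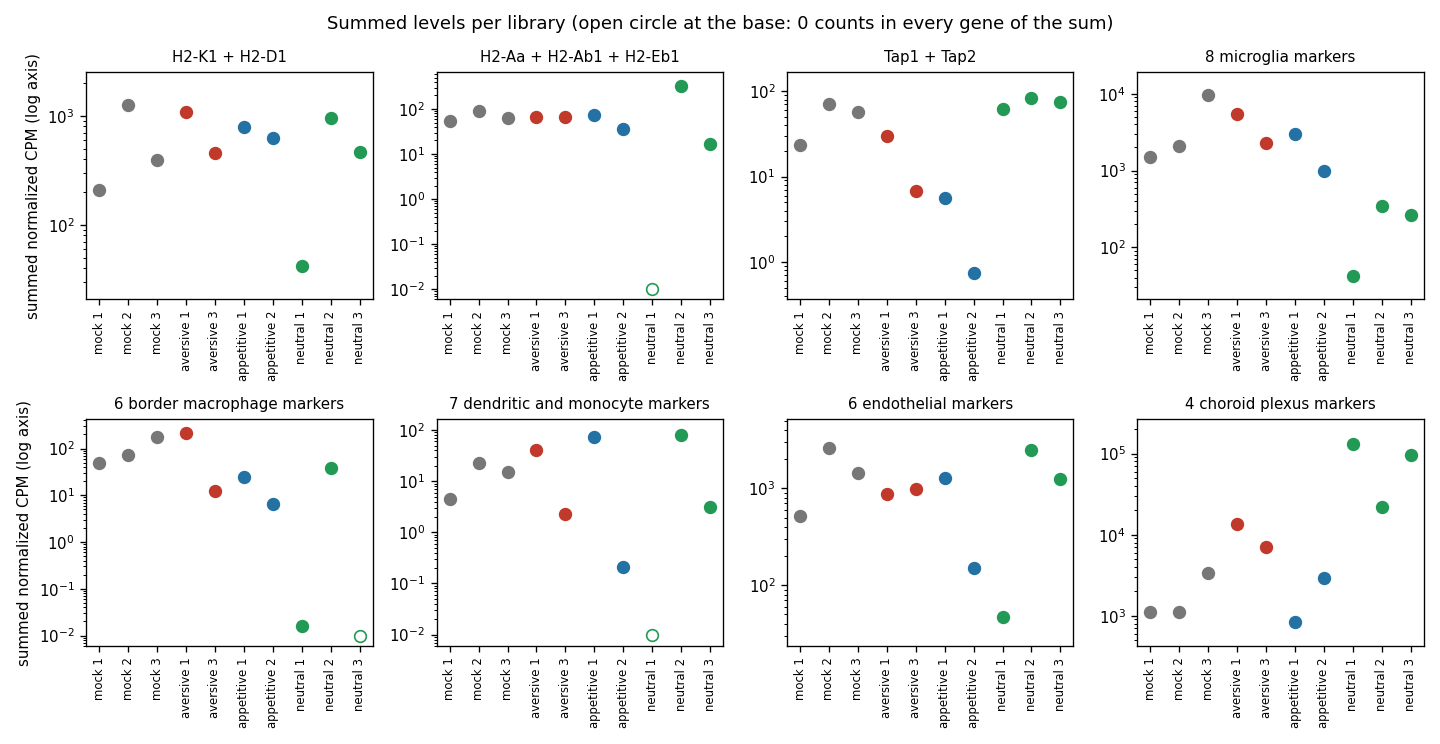
Summed normalized CPM (log axis) per library, colored by group, of the class I heavy chains, the class II chains, both TAP subunits and 5 lists of cell type markers. The class II chains lie between 35.7 and 89.1 CPM in all mock, aversive and appetitive libraries and at 0, 325 and 16.6 CPM in the neutral libraries. The microglia markers reach at most 341 CPM in the 3 neutral libraries and at least 983 CPM in the others.

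Counted over the 10 genes, at most 1 passed in any comparison. In aversive against neutral libraries 0 of 10 passed in edgeR, where 0.0405% of the 19754 tested genes passed, while B2m alone had an unadjusted p under 0.05, and DESeq2 called Tap1 and B2m. In appetitive against neutral 1 of 10 passed, Tap2, where 6.17% of all genes passed and 5.23% were called lower. In appetitive against aversive 0 of 10 passed in edgeR, where 1.8% of all genes passed, while Tap2 alone had an unadjusted p under 0.05, and DESeq2 on all 10 libraries called it.

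Against mock, 0 of 10 passed in edgeR in each of the 3 comparisons. The share of all genes that passed was 0% for aversive, 1.98% for appetitive and 0.0861% for neutral. At an unadjusted p under 0.05 there were 0 genes for aversive, 1 for appetitive (Tap2) and 1 for neutral (B2m). DESeq2 on the 2 groups alone called Tap1 and H2-Eb1 for aversive, both DESeq2 fits called Tap2 for appetitive, and neither called a gene for neutral.

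Groups that did not overlap were also about as common among the 10 genes as among all genes. Aversive libraries lay wholly above neutral for 1 gene (B2m) and wholly below for 2 (Tap1 and Tap2), against 14.4% and 19.3% of all tested genes. Appetitive libraries lay wholly above neutral for 1 (B2m) and wholly below for 2 (Tap1 and Tap2), against 11.4% and 27.2%. Appetitive libraries lay wholly above aversive for 0 and wholly below for 2 (Tap2 and Cd74), against 8.34% and 20.1%. These comparisons share libraries. The median log2 fold change of the 10 was −0.02, −1.14 and −0.48 in the 3 comparisons, beside −0.15, −0.91 and −0.48 over all tested genes. The median over all genes in appetitive against neutral was −0.63 with DESeq2's size factors and −1.45 with library size alone, so that values near it depend on the scaling. Relative to the median of −0.91, the B2m value of 2.02 and the Tap2 value of −6.85 lay on opposite sides.

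Per kb of exon, which allows levels of genes to be compared, B2m, H2-D1 and H2-K1 were ranks 1 to 3 of the 10 in mock, aversive and appetitive libraries. B2m was at 643 ± 490 CPM per kb in mock (SD, n = 3) and 1140 ± 732 in aversive (n = 2), and H2-D1 at 158 ± 157 and 183 ± 122, and B2m lay above H2-D1 in each of these 5 libraries. In appetitive libraries (n = 2) B2m at 797 ± 24.5 and H2-D1 at 206 ± 19.9 CPM per kb lay apart. In neutral libraries (n = 3) the order was B2m at 196 ± 62.2, H2-D1 at 124 ± 126 and Cd74 at 84.1 ± 138 CPM per kb, neighbors that do not differ beyond their spread. The lowest rank was held by Tap1 in mock, aversive and neutral libraries and by Tap2 in appetitive libraries, at 0.128 ± 0.0933 CPM per kb.

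Among other genes of the class I pathway, 16 were listed and tested, and 0 passed in edgeR in any of the 6 comparisons, while at most 3 of 16 had an unadjusted p under 0.05 in any of them. These were 3 downward in appetitive against neutral, where 21.8% of all tested genes had such a p downward, 3 in appetitive against aversive (15.8% of all) and 2 in appetitive against mock (21% of all). Upward there was 1 each in aversive against neutral (8.28% of all) and in neutral against mock (3.72% of all). The median log2 fold change of the 16 was −0.35 in aversive and −1.05 in appetitive against neutral. Psmb8, a catalytic subunit of the immunoproteasome, ranged from 0.943 CPM (appetitive replicate 2) to 88.2 CPM (aversive replicate 1). H2-T23, the gene for Qa-1, was at 55.2 and 0.2 CPM in aversive and at 2.03 and 42.3 CPM in appetitive libraries, against 11.7 to 62.8 CPM in mock and 17.6 to 43 CPM in neutral libraries. Nlrc5, the transactivator of class I genes, was at or below 1.62 CPM in the aversive and appetitive libraries and between 0.624 and 8.14 CPM in neutral libraries.

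Among other genes of the class II pathway, 12 were listed and tested. At an unadjusted p under 0.05 by edgeR, 4 were higher in aversive than neutral (8.28% of all genes). Of these 4, H2-Oa and Ciita had at most 5 counts in an aversive library. Appetitive against neutral had 1 upward (7.46%) and 2 downward (21.8%). Downward there were 2 in appetitive against aversive (15.8%), 3 in appetitive against mock (21%) and 4 in neutral against mock (9.73%). The median log2 fold change of the 12 was 1.01 in aversive and 0.71 in appetitive against neutral. H2-DMb1, a chain of the peptide exchanger H2-M, was called lower in appetitive than in neutral libraries, the only call among the 6 comparisons of this list. It stood at 0.156 and 0 CPM in appetitive against 19.5, 12.8 and 12.2 CPM in neutral libraries, a difference of −7.62 on the log2 scale (SE 1.99) with an adjusted p of 0.0476 by edgeR. The adjusted p ran from 2.88e-06 to 0.131 over 17 alternatives and was under 0.05 in 7. Leaving out any 1 of the mock or neutral libraries, or appetitive replicate 2, ended the call. H2-DMa, its partner chain, was at 52.5 and 0 CPM in appetitive and at 5.22, 16.7 and 0.0771 CPM in neutral libraries.

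Ctss, cathepsin S, the protease that trims the invariant chain and that microglia express strongly, lay lower in the neutral libraries than in all others. It stood at 0.158, 56.1 and 54.9 CPM in neutral libraries. In the other 7 it lay between 280 and 1650 CPM, a separation not counted over all genes. Against neutral, the log2 fold change was 4.87 (SE 1.54) in aversive and 4.15 (SE 1.5) in appetitive libraries, with adjusted p-values of 0.169 and 0.103 by edgeR, and it was called in both comparisons in 2 of 18 alternatives, edgeR without a filter and DESeq2 on all 10 libraries. In aversive against neutral all 8 microglia markers had positive fold changes, 0 of 8 were called in edgeR and 7 had an unadjusted p under 0.05, as did 8.28% of all tested genes upward. Ciita, the transactivator of class II genes, reached at most 0.76 CPM in any library and had 0 counts in all 3 neutral libraries, including the one with 35441 counts of Cd74.

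**Figure D4:**
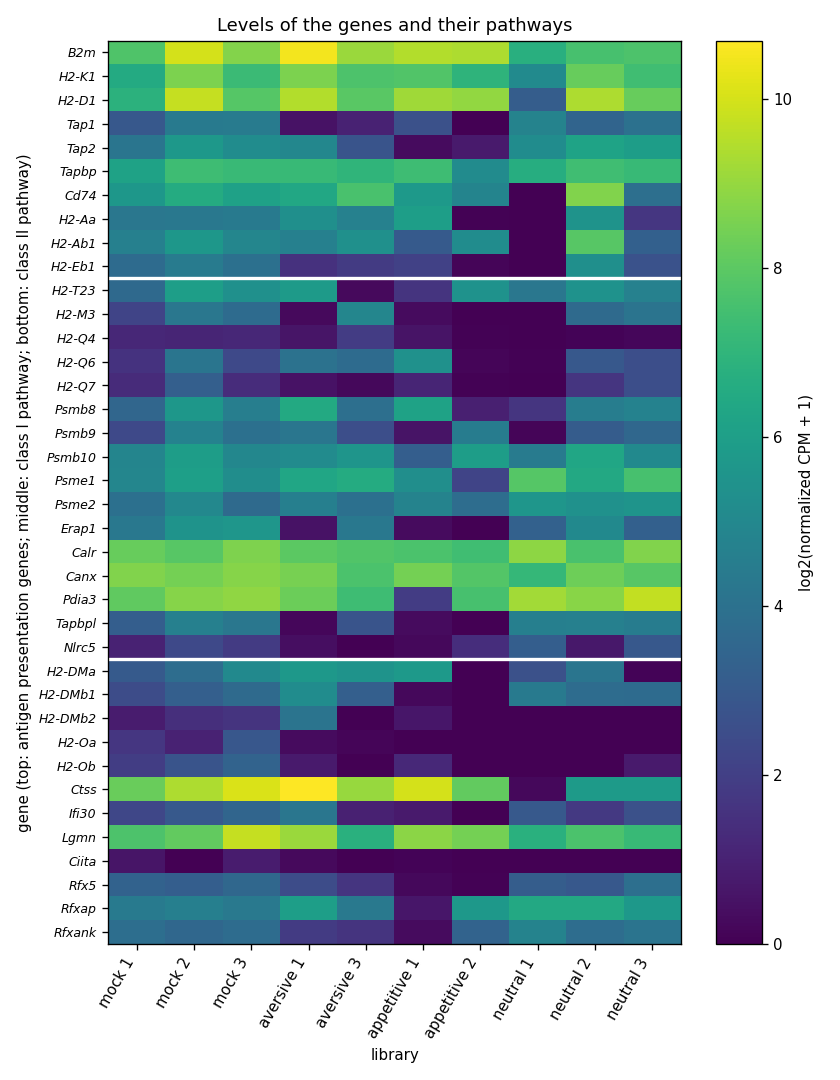
Heat map of log2(normalized CPM + 1) for the 10 antigen presentation genes (top), 16 genes of the class I pathway (middle) and 12 of the class II pathway (bottom), with 1 column per library. B2m is bright in every column and dimmest in neutral replicate 1, while Tap2 and H2-DMb1 are dark in both appetitive libraries.

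By the root mean square difference of centered log2(CPM + 1) over the 10 libraries, the genes most like B2m were Sat1 (0.493), Nfkbia (0.562), Litaf (0.62), Stx12 (0.642) and Bnip3l-ps (0.666), where the median over all tested genes was 1.72. H2-K1 was rank 58 in likeness to B2m (0.81) and H2-D1 rank 4851 (1.3). The gene most like Cd74 was H2-Ab1 (0.904), followed by Tle2 (1.12), Fry (1.17), Cadm1 (1.19) and Cpm (1.2), where the median was 2.5. H2-D1 was rank 19, H2-Aa rank 34, H2-K1 rank 70 and H2-Eb1 rank 210. The points in these measures share library, kit and depth, and neutral replicates 1 and 2 hold the extremes of Cd74.

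**Figure D5:**
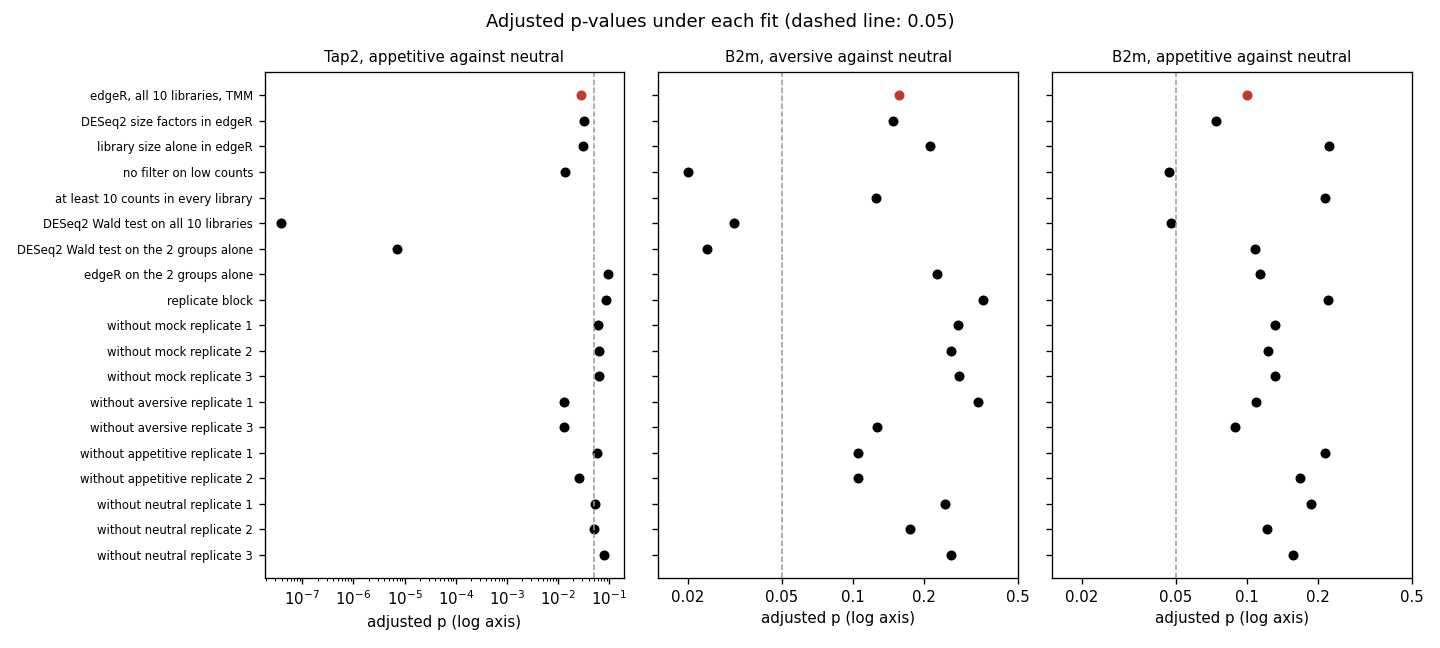
Adjusted p-values (log axis) of Tap2 in appetitive against neutral and of B2m in aversive and in appetitive against neutral, in the edgeR fit on all 10 libraries (red) and in each alternative (black), with a dashed line at 0.05. Points of Tap2 lie on both sides of the line, from 3.83e-08 to 0.0951, and most points of B2m lie above it.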

How the data were processed

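RNA of sorted cells was measured by RNA-seq, EYFP cells in the tagged groups and cells not stated in mock. By the authors' methods, reads trimmed to their first 40 bp were aligned to mm10 (GRCm38) with STAR. The authors counted reads per Ensembl gene with featureCounts without using strand, and deposited raw counts, 1 file for each of the 10 libraries. Groups came from the sample labels. The members, pathway lists and marker lists were chosen with earlier results of these data known, and the motifs after the promoter letters had been seen. All 10 members were named, with pathway genes by count, those called and 6 defining genes (Psmb8, H2-DMa, Ctss, Ciita, Nlrc5, H2-T23) by value, and the 5 genes most like B2m and Cd74.

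The test on counts was that of edgeR 4.0.16 (run under R 4.3.3), by TMM scaling (factors 0.48 to 1.45), filterByExpr and 1 quasi-likelihood fit of 4 groups to 10 libraries, with a common dispersion of 1.49. P-values are two-sided, with Benjamini-Hochberg adjustment over 19754 genes and a threshold of 0.05. Standard errors were derived from F. Total counts were 16968588 to 67650693, with a floor of 3 counts. Of 53379 genes, 53274 matched GENCODE M21. The marker lists covered microglia, border macrophages, dendritic cells and monocytes, B cells, T cells, endothelial cells, neurons, astrocytes, oligodendrocytes and choroid plexus. Alternatives were DESeq2 1.42.0 (Wald test), other scalings and filters, a fit of 2 groups alone, a replicate block and leaving out each library. The edgeR step was tested on simulated data. The result of 1 marker gene is not reported here and enters totals only. Python 3.11.15 with pandas 2.3.3, numpy 2.4.6 and matplotlib 3.10.9 made the tables and plots.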

Additional observations from a re-analysis of the deposited data

How the results depend on the processing

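Of 661 fold changes under an alternative, over 38 results, 566 kept direction and side of the threshold, 19 lost the threshold, 23 gained it and 53 reversed. None of the reversed values passed the test. In aversive against neutral, where 0 members were called, there was 1 call with no filter and 2 with DESeq2 on all 10 libraries and on the 2 groups alone. In appetitive against neutral, where 1 was called, there were 2 with no filter and with DESeq2 on all 10 libraries, 0 with at least 10 counts in every library (which only 4 members met), 0 with edgeR on the 2 groups alone, and 0 to 1 when a library was left out. In appetitive against aversive there was 1 with DESeq2 on all 10 libraries and 0 to 1 when a library was left out (1 without aversive replicate 3). In aversive against mock there were 2 with DESeq2 on the 2 groups alone. In appetitive against mock there was 1 with no filter, with either DESeq2 fit and with edgeR on the 2 groups alone, and 0 to 1 when a library was left out. In neutral against mock there were 0 in each.

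Log2 fold changes that reversed were −0.75 (library size alone) and −0.47 (at least 10 counts) for H2-K1 and −0.39 (library size alone) for H2-Aa in appetitive against neutral, and −0.20 (at least 10 counts) for H2-D1 in appetitive against aversive. In aversive against neutral, size factors, no filter, DESeq2 on all 10 libraries, DESeq2 on the 2 groups and edgeR on the 2 groups gave 0.14, 0.15, 0.13, 0.27 and 0.21 for Tapbp and 0.20, 0.19, 0.18, 0.25 and 0.23 for Cd74. For H2-Aa in appetitive against aversive, size factors and DESeq2 on all 10 libraries gave 0.19 and DESeq2 on the 2 groups 0.27. The cause was not tested. With a library left out, reversals gave ranges in aversive against neutral of −0.36 to 1.66 for H2-D1, −0.19 to 0.18 for Tapbp, −0.73 to 4.33 for Cd74 and −1.94 to 2.90 for H2-Ab1. In appetitive against neutral they were −0.54 to 0.78 for H2-K1, −2.10 to 0.18 for Tapbp, −2.48 to 2.54 for Cd74, −8.23 to 4.80 for H2-Aa and −3.68 to 2.30 for H2-Ab1. In appetitive against aversive they were −1.07 to 0.24 for B2m, −0.39 to 0.98 for H2-D1, −8.19 to 2.70 for Tap1, −2.13 to 0.15 for Tapbp, −9.33 to 0.82 for H2-Aa and −4.52 to 0.39 for H2-Eb1.

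Replicate numbers did not pair the libraries, with correlations of deviations of −0.038 to 0.168 over 12 same-numbered pairs, 2 of them over 0.1. With the replicate number as a block, 0 members were called in appetitive against neutral, where the adjusted p of Tap2 was 0.0861 by edgeR. The block reversed H2-D1 in appetitive against aversive (−0.32), Cd74 against neutral in aversive (2.38) and appetitive (0.42) and H2-Ab1 in aversive against neutral (1.73). Libraries from little RNA with groups of 2 and 3, and a common dispersion of 1.49, limit what these counts can show. The effect of depth was not tested.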
